A study of Mus musculus with 12 samples.

Results

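The calcium release and uptake genes are 6 genes that act in the release, storage, uptake or removal of calcium in muscle cells: Ryr2, Ryr3, Casq2, Atp2a2, Pln and Slc8a1. They were taken by symbol from the probe annotation of the array platform. All 6 were measured, by 19 probes, among 19057 genes measured by 34885 probes with a single gene symbol. Where a gene had several probes, the brightest on average over all arrays was used. The arrays were made from total RNA of mouse embryos (Illumina Mouse WG-6 v2), taken from 2 dissected regions, the atrioventricular canal (AVC) and the primary ventricle, which is labelled LV, at embryonic day 10 (E10) and embryonic day 9 (E9). There were 4 groups of 3 arrays, AVC E10, AVC E9, LV E10 and LV E9. The labels state no strain, genotype, sex or number of embryos in a sample, and they name no treatment for any group. The AVC is the heart segment between atrium and ventricle in which the valve-forming cushions arise, and a whole dissected piece can hold several cell types. Nothing says that the 3 arrays of a group came from separate litters, so p-values reflect only how far these samples spread within groups, and part of that spread may be technical. The limma tests described below pooled this spread over all 4 groups. Leaving out an array can therefore change the p-value of a comparison that the array is not part of.

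In a heart muscle cell, calcium that enters through voltage-gated channels opens ryanodine receptors, and these release the larger amount stored in the sarcoplasmic reticulum. Calsequestrin holds calcium inside the store, the pump SERCA2 returns it there, phospholamban restrains that pump, and the sodium-calcium exchanger carries calcium out of the cell. In the mouse embryo, loss of the exchanger or of the cardiac ryanodine receptor is lethal before birth, while the AVC muscle is known for its slow conduction.

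Values are array intensities on a linear scale, background subtracted and brought to the same mean (386) on every array. The size of the most negative value on an array was taken as its background limit, 22.4 to 29.6, and a value above it was called above background. The tissue labels were checked against marker genes. Of 13 measured cardiomyocyte markers, 12 were above background on all 12 arrays and Nebl on none. The AVC muscle gene Tbx2 read 165 to 212 in AVC E10 against 5.23 to 33.6 in LV E10 (adjusted p = 0.026), and 202 to 341 in AVC E9 against 9.99 to 30.6 in LV E9 (adjusted p = 0.0324). LV E10 replicate 1 stood apart, judged over the 8340 genes that were above background on every array. Its mean correlation with its own group was 0.933, and it was closest to LV E9 replicate 2 (r = 0.969). It had the highest level of the blood gene Slc4a1, 32694 against 7748 and 16488 on the other LV E10 arrays, and of the endoderm gene Ttr, 1826 against 79.6 and 314. AVC E10 replicate 1 and AVC E9 replicate 2 were each closest to the other (r = 0.979), across the ages. Their mean correlations with their own groups were 0.971 and 0.967, in that order. Some of the results that rest on these arrays are also given without them.

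Few of the 6 genes passed the test between groups. Calls were made by limma at an adjusted p under 0.05, with the adjustment over all 19057 genes. In AVC E9 against LV E9, 0 of the 6 were called, where 1.02% of all genes were, and 2 reached an unadjusted p under 0.05, where 11.5% of all genes did. At that unadjusted level the counts were 3 in AVC E10 against LV E10 (13.9% of all genes), 4 in AVC E10 against AVC E9 (12.5%) and 4 in LV E10 against LV E9 (19.6%). In AVC E10 against LV E10, 1 was called (Ryr3, higher), where 2.3% of all genes were called and 2.06% were called higher. In AVC E10 against AVC E9, 1 was called (Ryr3, higher), where 0.551% were called and 0.43% were called higher. In LV E10 against LV E9, 1 was called (Atp2a2, lower), where 2.37% were called and 1% were called lower. The tissue by age interaction, which tests whether the age difference of the AVC differs from that of the LV, called 1 (Ryr3), where 0.0315% of all genes were called and 0.021% with a positive sign. The interaction was called for 6 genes of all tested, and 1 of those was Ryr3. Scaling mattered for the direction of calls over all genes. Between tissues 83.6% of called genes were higher in the AVC at E9 and 89.5% at E10, against 62.0% and 63.6% with a common median, and 65.1% and 69.4% after quantile normalization. With age, 78.1% of called genes were higher at E10 in the AVC (65.3% with a common median, 88.5% when scaled to cardiomyocyte genes) and 57.7% in the LV (76.3% when scaled to cardiomyocyte genes).

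Separation of the arrays was more common than a call. Between the ages, all 3 E10 arrays lay outside the range of the 3 E9 arrays for 4 of the 6 genes in the AVC (Ryr3, Casq2 and Pln above, Atp2a2 below), where 16.2% of all genes did so, 10.2% above and 5.96% below. In the LV this held for 5 of the 6 (Casq2 and Pln above, Ryr2, Atp2a2 and Slc8a1 below), where 20.4% of all genes did so, 8.05% above and 12.3% below. Between the tissues it held for 2 of the 6 at E9 (Casq2 and Pln, both lower in the AVC), where 17.1% of all genes did so and 5.31% were lower, and for 2 at E10 (Ryr3 and Atp2a2, both higher in the AVC), where 15.8% did so and 13.1% were higher. In both tissues Pln and Casq2 had the higher E10 values, and Ryr2, Atp2a2 and Slc8a1 had the lower E10 means. The comparisons share groups of arrays, so their directions are not independent. The thresholds stated in the methods of the study, at least 4-fold and a significance of at most 0.01, here applied to the unadjusted p, were passed by 0 members at E9 between tissues (1.17% of all genes), by 1 at E10 (Ryr3, 1.41%), by 2 with age in the AVC (Ryr3 and Casq2, 1.36%), by 0 with age in the LV (1.67%) and by 1 for the interaction (Ryr3, 0.514%).

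**Figure D1:**
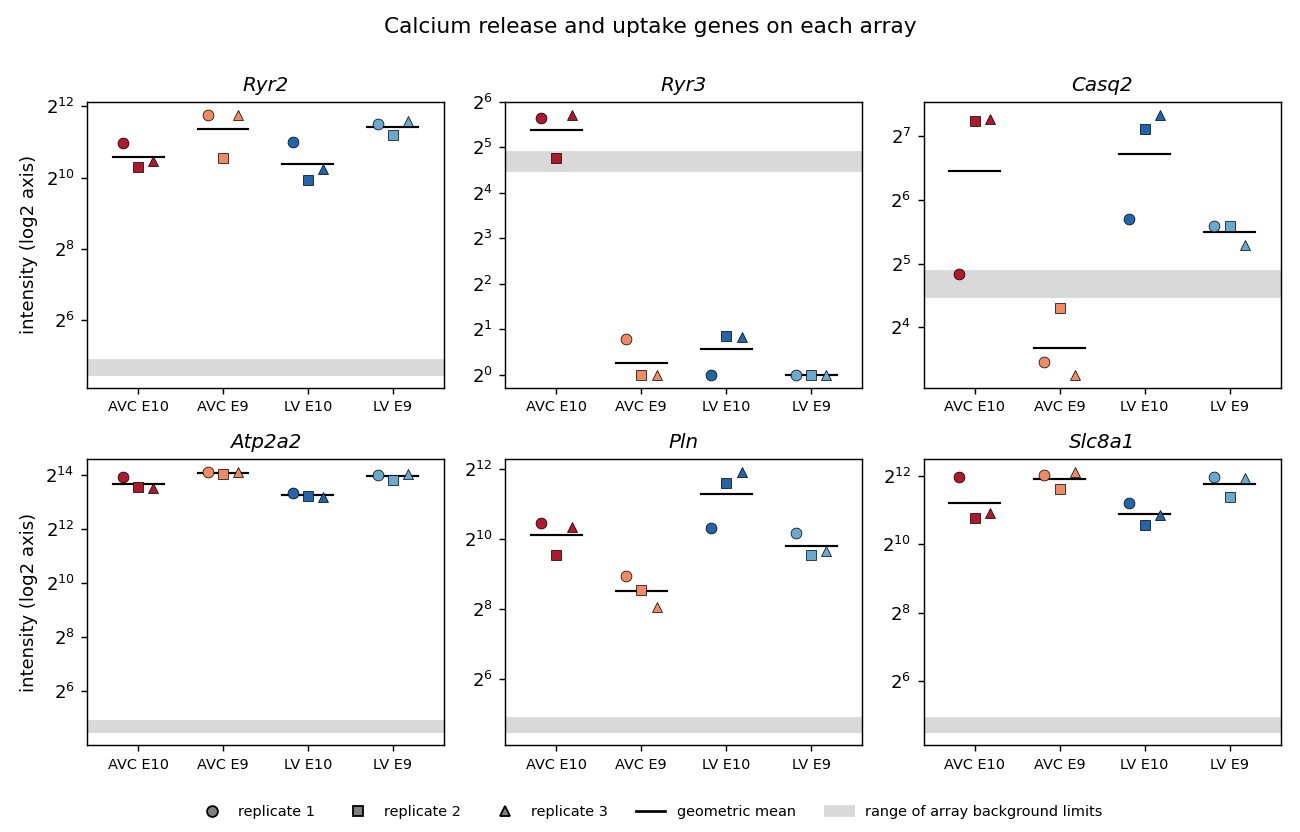
Intensity of each gene on each of the 12 arrays, on a log2 axis, by group, with symbols for the replicates, a line at the geometric mean of a group and a grey band for the range of the array background limits (22.4 to 29.6). Ryr3 lies above the band or within it only in AVC E10 (27.3 to 52.6), Casq2 lies below it in AVC E9 (9.59 to 19.8), and the Pln arrays of E10 lie above those of E9 within each tissue. Values under 1 are drawn at 1.

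Ryr2 encodes the cardiac ryanodine receptor, the release channel of the heart muscle store. All its values come from 1 probe, since the other 4 of its 5 probes were above background on no array. Its intensity was 2009, 1256 and 1411 in AVC E10 (1559 ± 398, SD, n = 3) and 3437, 1483 and 3471 in AVC E9 (2797 ± 1138). In the LV it was 2020, 966 and 1212 in LV E10 (1399 ± 551) and 2893, 2322 and 3049 in LV E9 (2755 ± 383). The E10 arrays were low and the E9 arrays high in both tissues, without overlap in the LV. In the AVC the groups overlapped, because AVC E9 replicate 2 lay within the range of the E10 arrays. The log2 difference of E10 from E9 was -1.04 in the LV (SE 0.39, adjusted p = 0.188) and -0.77 in the AVC (adjusted p = 0.489), and neither was called. Without AVC E9 replicate 2 the AVC difference was -1.18, and without LV E10 replicate 1 the LV difference was -1.34, also not called. AVC and LV arrays overlapped at both ages. The AVC minus LV difference was 0.20 at E10 (95% interval -0.69 to 1.09) and -0.07 at E9 (-0.96 to 0.82). With 3 arrays a group, tissue differences anywhere within these intervals, which are before adjustment, remained possible.

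Ryr3 encodes a ryanodine receptor found at low level in many tissues, brain and some muscles among them. It was above background in AVC E10 alone, at 49.9, 27.3 and 52.6 (43.3 ± 13.9, SD, n = 3). The AVC E9 arrays read 1.72, -0.114 and 0.0357, the LV E10 arrays -6.62, 1.80 and 1.78, and the LV E9 arrays -7.59, -6.95 and -4.61, so all 9 were at background. Its level in AVC E10 was thus low itself, and AVC E10 replicate 2 exceeded its own array limit of 26.7 by little. With the other groups taken at the lowest signal that could be told from background, Ryr3 was at least 1.66-fold higher in AVC E10 than in LV E10 and at least 1.78-fold higher in AVC E10 than in AVC E9. The fitted limma log2 differences that were called, 4.82 (adjusted p = 9.34e-04) and 5.11 (adjusted p = 9.2e-04), depend on setting values under 1 to 1 and are no measure of size. When each array was instead floored at its own background limit they became 0.73 (adjusted p = 0.0888) and 0.83 (adjusted p = 0.0659), and the calls were lost.

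The interaction for Ryr3 was 4.56 on the log2 scale (adjusted p = 0.0251), the difference between its age effect in the AVC and in the LV. It was lost when AVC E9 replicate 3 (adjusted p = 0.0603), LV E9 replicate 2 (0.0522) or LV E9 replicate 3 (0.0518) was left out, and under the higher floors, quantile normalization (0.0678) and a test among genes above background only (0.0784). A second Ryr3 probe gave the same pattern, at 56.2, 33.4 and 45.6 in AVC E10 and at most 4.42 on the other 9 arrays, but its interaction of 4.20 was not called (adjusted p = 0.469). The other 2 Ryr3 probes were above background on no array. Markers of cushion mesenchyme were highest in AVC E10, like Ryr3, but unlike Ryr3 they were above the LV groups in AVC E9 too. For the 8 of 9 genes of that list above background in a group, the summed intensity was 7716 to 8766 in AVC E10, against 4530 to 6463 in AVC E9, 1325 to 2391 in LV E10 and 1570 to 1896 in LV E9. Their part in the Ryr3 result was not tested. In these bulk samples, fewer cells of a type and less RNA per cell cannot be told apart, here and for every gene that follows.

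Casq2 encodes cardiac calsequestrin, the calcium-binding protein of the store lumen. Its promoter window is shown because it was the only member window with a match to a motif of muscle transcription factors that is rare among promoters. It spans chr3:102086165-102086464 (+ strand, RefSeq on GRCm38.p6), from 250 bases before to 50 after the annotated start, written 5′ to 3′, and the capitals mark that match, to the MEF2 motif.
Casq2: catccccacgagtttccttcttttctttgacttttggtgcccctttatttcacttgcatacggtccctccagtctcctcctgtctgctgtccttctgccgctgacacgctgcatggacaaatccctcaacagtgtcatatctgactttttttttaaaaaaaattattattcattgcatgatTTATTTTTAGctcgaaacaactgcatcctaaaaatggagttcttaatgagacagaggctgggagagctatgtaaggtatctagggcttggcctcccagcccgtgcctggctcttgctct
The match lies at -69 to -60 from the start, and 3.19% of 32851 mouse promoter windows of the same length hold such a match on either strand. It is a description of the letters and was not tested as a binding site.

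Casq2 was dim throughout. It read 28.7, 151 and 153 in AVC E10 (111 ± 71.0, SD, n = 3) and 11.1, 19.8 and 9.59 in AVC E9, all 3 of the AVC E9 values at background. It read 51.9, 138 and 161 in LV E10 (117 ± 57.5) and 48.3, 48.1 and 39.2 in LV E9 (45.2 ± 5.19). Both E10 groups held a low first array and a higher pair, and neither E10 group overlapped with the E9 group of its tissue. Casq2 was at least 3.72-fold higher in AVC E10 than in AVC E9 (fitted log2 difference 2.77, adjusted p = 0.13) and at least 1.92-fold lower in AVC E9 than in LV E9 (fitted -1.81, adjusted p = 0.34), and neither was called. In LV E10 against LV E9 the difference was 1.22 (adjusted p = 0.399). In AVC E10 against LV E10 the arrays overlapped (-0.27, 95% interval -1.85 to 1.31).

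The Casq2 tests depended on the first E10 arrays. Without AVC E10 replicate 1, the age difference in the AVC was 3.57 and was called (adjusted p = 0.0156). Without both E10 replicate 1 arrays, the LV age difference was 1.73 (adjusted p = 0.0164) and the AVC E9 against LV E9 difference of -1.81 also passed (adjusted p = 0.0309). Endothelial and epicardial markers, like Casq2, were on the high side at E10 in each tissue, with a slight overlap of the endothelial sums in the LV. At E9, where Casq2 was lower in the AVC than in the LV, the endothelial sums were lower there too, but the epicardial sums overlapped. Gene by gene the endothelial list was mixed between tissues at E9. It had 4 positive and 4 negative AVC minus LV differences (median -0.03), and none was called. The summed intensity of 8 endothelial genes was 7204 to 10146 in AVC E10 against 5194 to 5957 in AVC E9, and 7894 to 9809 in LV E10 against 6151 to 7948 in LV E9, with Kdr above background on no array. That of 5 epicardial genes was 4867 to 5462 in AVC E10 against 602 to 853 in AVC E9, and 2954 to 6679 in LV E10 against 314 to 921 in LV E9. In the AVC, endoderm markers ran the other way, at 1157 to 2559 in AVC E10 against 3332 to 5409 in AVC E9 for the 4 of 8 above background in a group, with Alb, Foxa2 and Epcam on no array. In the LV their sums overlapped, at 999 to 3793 in LV E10 against 1557 to 3559 in LV E9. The part of these cells in the Casq2 and Pln values was not tested.

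Atp2a2 encodes SERCA2, the pump that refills the store. Its intensity was 15253, 12071 and 11513 in AVC E10 (12946 ± 2018, SD, n = 3) and 17438, 16463 and 17424 in AVC E9 (17108 ± 559). In the LV it was 10263, 9587 and 9186 in LV E10 (9678 ± 544) and 16153, 14302 and 16511 in LV E9 (15655 ± 1186). The order of the means was AVC E9, LV E9, AVC E10, LV E10, with overlap only between AVC E9 and LV E9 and between AVC E10 and LV E9. Atp2a2 fell by 0.69 on the log2 scale in LV E10 against LV E9 (SE 0.10, adjusted p = 0.0236), a 1.62-fold lower level. In the AVC the difference was -0.41 (adjusted p = 0.132), not called, with 3 of 3 E10 arrays below all E9 arrays. The AVC minus LV difference was 0.41 at E10 (adjusted p = 0.0971, 95% interval 0.17 to 0.65) and 0.13 at E9 (adjusted p = 0.744). Whether age acted differently in the tissues was not resolved (interaction 0.28, 95% interval -0.06 to 0.62).

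Of the other 3 probes of Atp2a2, 1 was above background on no array and the other two also had lower values in LV E10. The second read 8730 to 10420 in LV E10 against 13647 to 18271 in LV E9 (log2 difference -0.77), and the next 397 to 947 against 883 to 1146 (-0.80), with overlap because LV E10 replicate 1 read 947. The LV call of Atp2a2 was lost without LV E10 replicate 2 (adjusted p = 0.0973), LV E10 replicate 3 (0.072), LV E9 replicate 1 (0.0635) or LV E9 replicate 3 (0.0878), with the difference between -0.69 and -0.65. The summed intensity of the cardiomyocyte markers was also on the low side at E10, at 128574 to 146485 in LV E10 against 148968 to 157389 in LV E9, and of 127957 to 144257 in AVC E10 against 144297 to 150835 in AVC E9. Gene by gene the list was mixed, with 5 of 12 positive and 7 negative differences in each tissue, medians of -0.08 in the LV and -0.06 in the AVC, and none called. Relative to those markers the LV difference of Atp2a2 was -0.59 and no longer called (adjusted p = 0.154). Without AVC E10 replicate 1 the AVC age difference was -0.54 and was called (adjusted p = 0.0131).

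Pln encodes phospholamban, which binds SERCA2 and slows it until it is phosphorylated. Its promoter window is shown because its arrays were separated in 3 of the 4 comparisons. It spans chr10:53337436-53337735 (+ strand, GRCm38.p6), and the capitals mark 2 matches to the GATA motif GATAA on either strand and, just past the start, the E box CAGCTG.
Pln: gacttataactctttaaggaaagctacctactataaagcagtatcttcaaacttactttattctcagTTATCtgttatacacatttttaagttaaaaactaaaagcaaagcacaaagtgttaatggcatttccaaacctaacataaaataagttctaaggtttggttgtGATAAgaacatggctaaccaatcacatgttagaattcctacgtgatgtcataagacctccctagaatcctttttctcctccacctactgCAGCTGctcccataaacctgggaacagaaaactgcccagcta
The GATA matches begin at -183 and -81 and the E box at 9 from the start. GATAA stood in 25.4% of all promoter windows and CAGCTG in 16.3%, so neither is rare.

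Pln read 1411, 747 and 1300 in AVC E10 (1153 ± 356, SD, n = 3) and 495, 375 and 268 in AVC E9 (379 ± 114). It read 1283, 3084 and 3855 in LV E10 (2740 ± 1320) and 1155, 751 and 815 in LV E9 (907 ± 217). The order of the means was LV E10, AVC E10, LV E9, AVC E9, and AVC E10 overlapped with each LV group. The E10 arrays lay above all E9 arrays within each tissue, and the AVC E9 arrays below all LV E9 arrays. The log2 difference of E10 from E9 was 1.60 in the AVC (SE 0.45, adjusted p = 0.172) and 1.48 in the LV (adjusted p = 0.119). The AVC minus LV difference was -1.16 at E10 (adjusted p = 0.276) and -1.28 at E9 (adjusted p = 0.286). None of these was called, although all 4 intervals excluded 0 before adjustment, and the interaction was 0.12 (95% interval -1.32 to 1.56).

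The LV value of Pln at E10 was low on the array that stood apart. Without LV E10 replicate 1, the LV age difference was 1.95 and was called (adjusted p = 0.0154). Chamber muscle markers summed to less in the AVC at both ages, on the same side as the Pln means. The summed intensity of 10 of the 12 listed genes (11 measured) was 44143 to 45280 in AVC E10 against 78924 to 81964 in LV E10, and 32634 to 45142 in AVC E9 against 74206 to 80788 in LV E9, while it overlapped between the ages of each tissue. Their part in the Pln values was not tested.

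Slc8a1 encodes NCX1, the exchanger that moves calcium out of the cell against sodium. Its promoter window, shown for comparison with that of Pln because both hold GATA matches, spans chr17:81738338-81738637 (- strand, GRCm38.p6), and the capitals mark the same GATA motif.
Slc8a1: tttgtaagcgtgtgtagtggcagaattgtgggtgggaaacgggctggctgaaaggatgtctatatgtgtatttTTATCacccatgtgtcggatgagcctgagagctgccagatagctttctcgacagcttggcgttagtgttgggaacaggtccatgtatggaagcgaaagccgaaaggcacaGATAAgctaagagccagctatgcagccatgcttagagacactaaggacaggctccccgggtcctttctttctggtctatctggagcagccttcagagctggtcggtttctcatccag
The matches begin at -177 and -67 from the start. The window of Ryr2 held no match to any motif searched, which says only that these letters are not in that window. The motifs were MEF2, the CArG box, the T-box core GGTGTG, the TEAD core CATTCC, the GATA and E box motifs given above and the core CACTT of the factor NKX2-5, all searched on both strands. CACTT was found in the windows of Casq2 and Pln and in 46.4% of all windows, and is left in lower case. GGTGTG (19.0% of all windows), CATTCC (14.7%) and the CArG box (1.63%) were in none of the 4 member windows. No window was used for Ryr3 and Atp2a2.

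Slc8a1 read 4037, 1753 and 1956 in AVC E10 (2582 ± 1264, SD, n = 3) and 4185, 3177 and 4452 in AVC E9 (3938 ± 672). It read 2369, 1516 and 1877 in LV E10 (1921 ± 428) and 4077, 2704 and 3987 in LV E9 (3589 ± 768). The LV ages did not overlap, and the AVC ages did because AVC E10 replicate 1 read as high as E9 arrays. The log2 difference of E10 from E9 was -0.90 in the LV (SE 0.33, adjusted p = 0.183) and -0.70 in the AVC (adjusted p = 0.453), neither called. Without both E10 replicate 1 arrays the LV difference was -1.06 and was called (adjusted p = 0.0318). The AVC and LV arrays overlapped at both ages, with differences of 0.35 at E10 (95% interval -0.42 to 1.11) and 0.14 at E9 (-0.62 to 0.91). A dimmer Slc8a1 probe read 68.5, 48.6 and 78.9 in LV E9 and no more than 5.14 in LV E10, and another read 15.4 to 34.1 in LV E10 against 37.0 to 41.7 in LV E9. With the former probe the LV age difference was called (limma, fitted -5.08, adjusted p = 0.0231). Its size depends on the floor, because that probe was at background in LV E10. In the AVC the same probe read 104, 20.8 and 118 at E9 against 17.5 to 19.2 at E10.

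**Figure D2:**
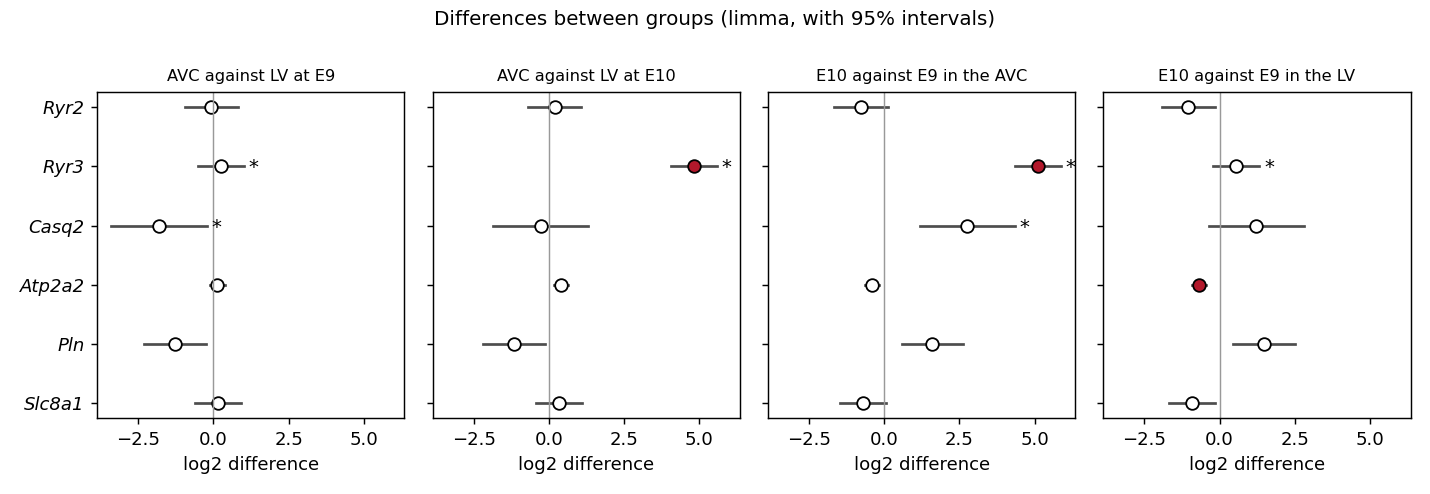
Log2 difference (x axis) of each gene in the 4 comparisons, with the group named before "against" on top, 95% intervals from limma before adjustment, and filled points for calls at an adjusted p under 0.05. Calls were Ryr3 in AVC E10 against LV E10 and against AVC E9, and Atp2a2 in LV E10 against LV E9 (-0.69), and asterisks mark values that depend on the floor because a group was at background.

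Over the 6 genes the fitted differences pointed up for 3 and down for 3 in AVC E10 against AVC E9 and in LV E10 against LV E9. With Ryr3 and Casq2 at their bounds, and Ryr3 left out where both groups were at background, the median difference was 0.21 in the AVC and -0.69 in the LV with age, where the median over all genes tested was 0 in both and that over the genes above background in a group was -0.01 and -0.10. Between tissues the same median was 0.27 at E10 and -0.07 at E9, against 0.07 and 0 over all genes tested and 0.18 and 0.08 over the genes above background. The pump, the exchanger and Ryr2 lay on the low side at E10, and the store protein and the pump inhibitor on the high side.

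Since levels of different probes cannot be set against each other, the balance between members was followed as the change of a log2 difference within each array. Pln over Atp2a2 was -3.43, -4.01 and -3.15 in AVC E10 and -5.14, -5.46 and -6.03 in AVC E9. It was -3.00, -1.64 and -1.25 in LV E10 and -3.81, -4.25 and -4.34 in LV E9. Each group was clear of the group it was compared with in all 4 comparisons. The difference of E10 from E9 in Pln over Atp2a2 was 2.01 in the AVC and 2.17 in the LV, and that of the AVC from the LV was -1.57 at E10 and -1.41 at E9. Each of these had an exact two-sided permutation p of 0.1, the smallest that 3 against 3 arrays allow, and 0.171 after adjustment over the 12 such tests, so the design could not pass 0.05.

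Slc8a1 over Atp2a2 showed no such separation. It ran from -2.78 to -1.92 in AVC E10 and from -2.37 to -1.97 in AVC E9, and from -2.66 to -2.11 in LV E10 and from -2.40 to -1.99 in LV E9. Its differences were -0.29 in the AVC and -0.21 in the LV with age (exact p = 0.4 each), and -0.06 at E10 (exact p = 0.9) and 0.01 at E9 (exact p = 0.8) between tissues. Ryr3 over Ryr2 was -5.52 to -4.75 in AVC E10 and -9.07 or lower elsewhere, values that depend on the floor because Ryr3 was at background outside AVC E10. In the LV the E10 arrays of this balance lay above the E9 arrays (difference 1.60, exact p = 0.1), with Ryr3 at background in both groups.

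**Figure D3:**
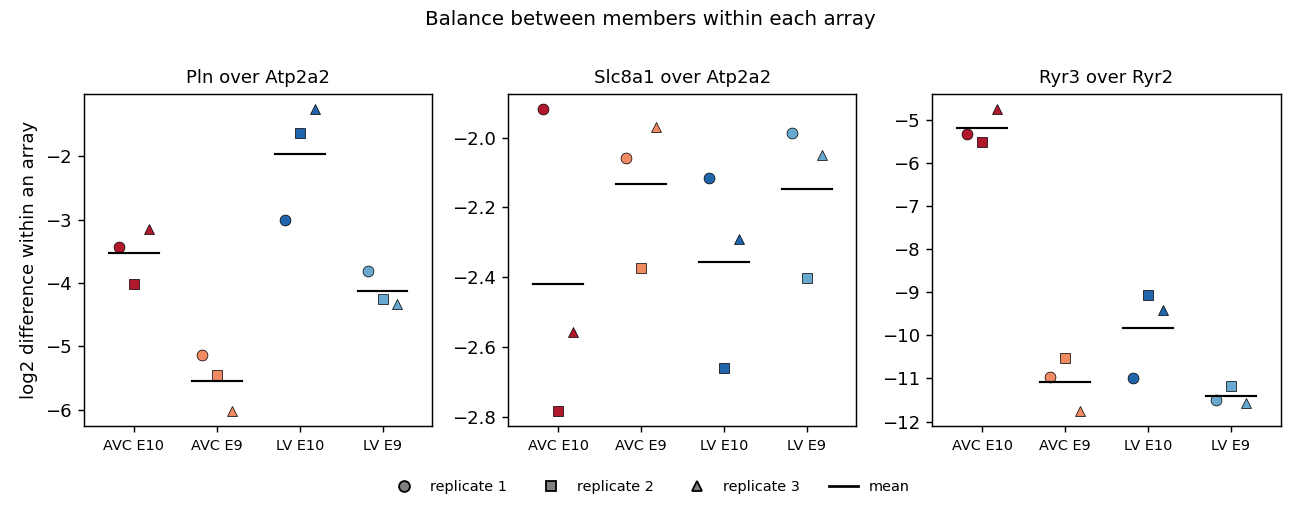
Log2 difference between 2 genes within each array (y axis) by group, with symbols for the replicates and a line at the mean. For Pln over Atp2a2 the E10 arrays lie above the E9 arrays in each tissue, and the AVC arrays below the LV arrays at each age. Slc8a1 over Atp2a2 overlaps between all groups. For Ryr3 over Ryr2, AVC E10 is the only group set apart from all others, and LV E10 lies above LV E9.

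The wider calcium handling genes were mostly without calls. Of 46 listed partners, pumps, buffers, channels and receptors, 43 were measured and 33 were above background in a group. In AVC E10 against LV E10, 1 of the 43 was called higher and 0 lower, in AVC E10 against AVC E9 0 higher and 1 lower, in LV E10 against LV E9 0 higher and 2 lower, and in AVC E9 against LV E9 limma called 0 of the 43. Over all genes 2.3%, 0.551%, 2.37% and 1.02% were called in these 4 comparisons, in that order. At an unadjusted p under 0.05 there were 10 partners in AVC E10 against LV E10 (13.9% of all genes), 8 in AVC E10 against AVC E9 (12.5%), 12 in LV E10 against LV E9 (19.6%) and 9 in AVC E9 against LV E9 (11.5%). The median difference of the 33 lay between -0.10 and 0.15 over the 4 comparisons, against -0.10 to 0.18 for the 9931 genes above background in a group. The called genes were the pump Atp2a1, Hax1 and Fkbp1a.

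Atp2a1, the SERCA1 pump of fast skeletal muscle, was higher in AVC E10 than in LV E10. It read 321, 121 and 166 in AVC E10 against 47.1, 10.5 and 25.1 in LV E10, and 1227, 696 and 1162 in AVC E9 against 182, 74.4 and 176 in LV E9. The tissues did not overlap at either age, and E10 lay below E9 in each. The AVC minus LV difference was 3.01 at E10 (adjusted p = 0.0483) and 2.90 at E9 (adjusted p = 0.0792). With age it was -2.42 in the AVC (adjusted p = 0.14) and -2.53 in the LV (adjusted p = 0.0731). The E10 call was close to the threshold and was lost when any array other than LV E10 replicate 1 was left out (highest adjusted p = 0.146, without AVC E10 replicate 3). Of the skeletal muscle regulators, Myod1 and Myf5 were above background on no array, and Myog, close to the background limit throughout, read 33.4, 11.3 and 42.1 in AVC E10 against 8.33, 27.7 and 28.8 in LV E10, and 29.1, 26.5 and 27.5 in AVC E9 against 16.3, 26.7 and 25.0 in LV E9. Of the 5 skeletal and smooth muscle genes above background in a group, 4 had a positive AVC minus LV difference at E10 (median 0.42, against 0.18 over all genes above background) and none was called. Their sum, which the brightest genes set, ran the other way, at 23793 to 25497 in AVC E10 against 26645 to 27935 in LV E10. Their part in the Atp2a1 result was not tested. Sln, the pump inhibitor sarcolipin, was picked after its values were seen. It read 14.3, 541 and 313 in AVC E10 and 16.2, 60.7 and 9.12 in AVC E9, and was above background on no LV array.

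Hax1, which binds phospholamban and SERCA2, read 453, 380 and 427 in AVC E10 against 526, 597 and 575 in AVC E9, and 471, 455 and 473 in LV E10 against 573, 602 and 611 in LV E9. It fell by 0.43 on the log2 scale in the AVC (adjusted p = 0.0432) and by 0.35 in the LV (adjusted p = 0.0411). Fkbp1a, the binding protein FKBP12 of ryanodine receptors, read 4668, 5775 and 5131 in LV E10 against 7627, 7377 and 7314 in LV E9 and fell by 0.52 (adjusted p = 0.0455). Each of these calls was lost when 1 of 8 or 9 of the 12 arrays was left out, with highest adjusted p of 0.144 for Hax1 in the AVC (without AVC E9 replicate 3), 0.149 for Hax1 in the LV (without LV E10 replicate 2) and 0.139 for Fkbp1a (without LV E9 replicate 3). Relative to the cardiomyocyte markers the differences were -0.24 (adjusted p = 0.671) for Hax1 in the AVC, -0.25 (adjusted p = 0.567) for Hax1 in the LV and -0.42 (adjusted p = 0.127) for Fkbp1a, and all 3 calls were lost.

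**Figure D4:**
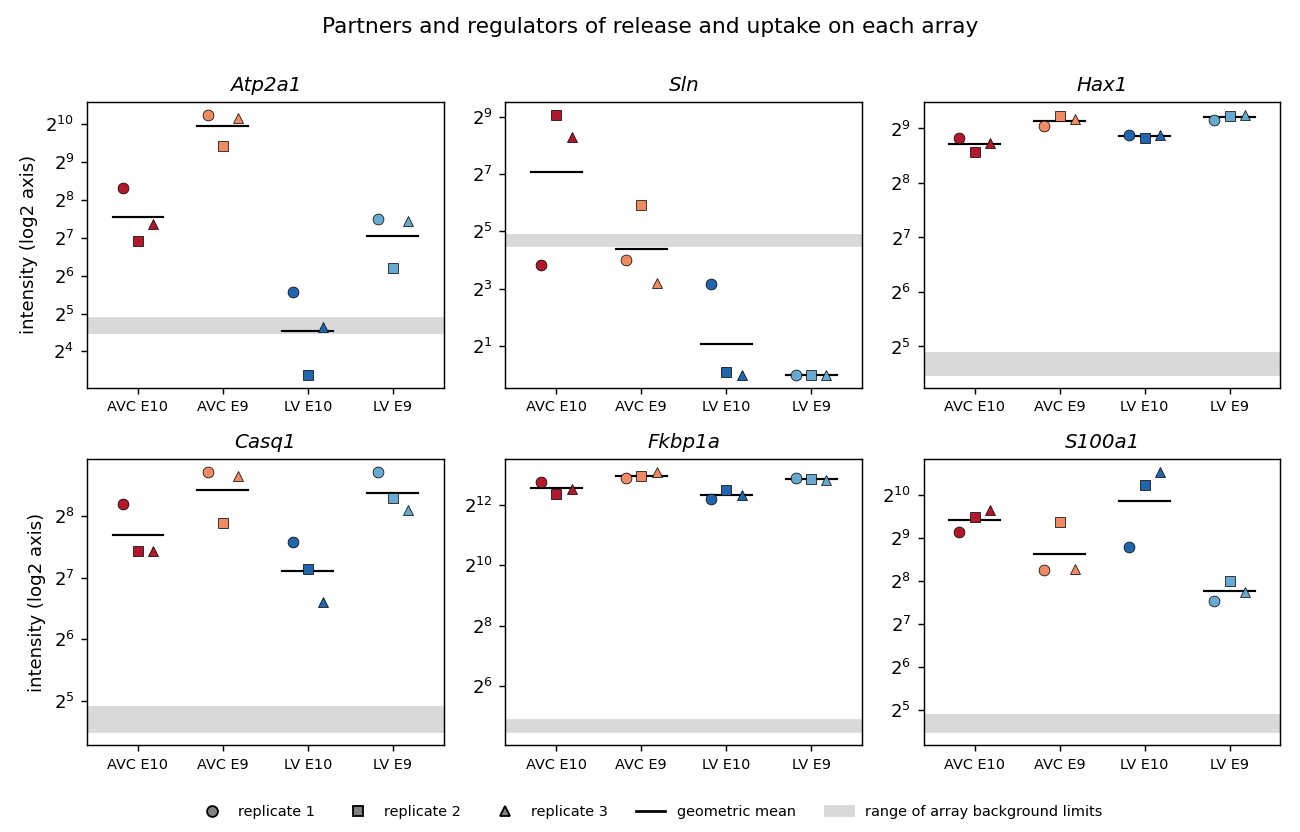
Intensity on each array (log2 axis) of the called partners Atp2a1, Hax1 and Fkbp1a and of Sln, Casq1 and S100a1, by group, with symbols for the replicates, a line at the geometric mean and a grey band for the array background limits. The AVC arrays for Atp2a1 lie above the LV arrays at both ages, Sln exceeds the band on 2 AVC E10 arrays and 1 AVC E9 array, and values under 1 are drawn at 1.

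Some of the uncalled partners with large differences within their lists are given as values. S100a1, a calcium sensor that acts on Ryr2 and SERCA2, read 446, 1206 and 1489 in LV E10 against 186, 257 and 215 in LV E9 (log2 difference 2.10, adjusted p = 0.0584). Hrc, a store-lumen protein that binds SERCA2, read 931, 636 and 699 in AVC E10 against 1703, 1186 and 1944 in AVC E9 (-1.08, adjusted p = 0.0863). Casq1, the skeletal calsequestrin, read 191, 142 and 97.1 in LV E10 against 420, 315 and 274 in LV E9 (-1.26, adjusted p = 0.0918). In the tissue given for each, the arrays did not overlap between the ages, with S100a1 higher and Hrc and Casq1 lower at E10. These 3 genes were picked for the size of their differences. Of all genes, 16.2% were separated by age in the AVC and 20.4% in the LV.

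Atp2a3, the SERCA3 pump, differed by -1.15 in AVC E9 against LV E9 (adjusted p = 0.674), and the calcium channel subunit Cacna2d1 by 0.99 in AVC E10 against AVC E9 (adjusted p = 0.517). Cacna1h, a T-type calcium channel, read 715, 325 and 427 in LV E10 against 1156, 1119 and 1234 in LV E9 (-1.34, adjusted p = 0.105). Srl, the luminal protein sarcalumenin, differed by 1.13 in AVC E9 against LV E9 (adjusted p = 0.239). Stim1, the store calcium sensor, differed by 0.57 in AVC E10 against LV E10 (adjusted p = 0.0901), and the receptor Itpr3, which opens on binding inositol trisphosphate, by 0.79 (adjusted p = 0.135). Ryr1, the skeletal release channel, was above background on 4 arrays, 3 of them AVC E9, and differed by 1.10 in AVC E9 against LV E9 (adjusted p = 0.094). Fkbp1b, the FKBP12.6 partner of Ryr2, differed by 1.36 there (adjusted p = 0.145). Itpr2 differed by 1.17 in AVC E10 against AVC E9 (adjusted p = 0.207) and the junctional protein Jph1 by -0.74 in AVC E10 against LV E10 (adjusted p = 0.277).

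Correlations between members over the 12 arrays, on the log2 scale, are given as a description, since the arrays share tissue, age and scaling. Slc8a1 followed Atp2a2 (r = 0.91, Spearman rho = 0.87) and Ryr2 (r = 0.90, rho = 0.90). Casq2 followed Pln (r = 0.77, rho = 0.71) and ran against Slc8a1 (r = -0.87, rho = -0.85) and Atp2a2 (r = -0.84, rho = -0.89). For Ryr3, at background on 9 of the 12 arrays, r with the other members lay between -0.38 and 0.39 and rho between -0.62 (with Ryr2) and 0.51 (with Pln), and the order of its values at background has no meaning.

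Likeness of pattern was taken over the 8340 genes detected on every array. The pattern of Ryr2 was closest to Fem1b, Tead1 and Epn2 (r = 0.98, 0.98 and 0.97 over 12 arrays) and farthest from Klhl6, Atp5j2 and Vkorc1. That of Ryr3 was closest to Tpst1, Papss2 and Arhgef26 (r = 0.96, 0.92 and 0.92), a ranking that rests on the 3 AVC E10 arrays, since Ryr3 was at background on the other 9. Tpst1 read 673 to 723 in AVC E10 against 428 to 507 in the other 3 groups. Casq2 was closest to Adgrl4, Tmem204 and Tec (r = 0.96, 0.93 and 0.92) and farthest from Scd1, Krt8 and Sorl1. Krt8, an epithelial keratin in the endoderm list, read 438 to 1706 in AVC E10 against 1950 to 3484 in AVC E9 (r = -0.95 with Casq2). Atp2a2 was closest to Col2a1, Sphkap and Sdad1 (r = 0.99, 0.97 and 0.97) and farthest from Tec, Dpp4 and Cdkn3. Col2a1, a cartilage collagen, read 153 to 256 in LV E10 against 1501 to 3002 in LV E9. Pln was closest to Lyz1, Lyz2 and Gja4 (r = 0.96, 0.95 and 0.94) and farthest from Olfm1, Abcc10 and Wnt2. Lyz2, a lysozyme of macrophages, read 321 to 1265 in LV E10 against 161 to 228 in LV E9. Slc8a1 was closest to Car4, Slc7a6 and Phtf2 (r = 0.98, 0.96 and 0.96) and farthest from Vamp8, Cdkn3 and Klhl6. Ryr3 was farthest from Mrap, Dap3 and Polr2l.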

How the data were processed

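Total RNA of 12 samples was hybridised to bead arrays as biotin-labelled cRNA. The values deposited by the authors are intensity on a linear scale; 34.7% were below 0, and each array had the same mean, so they had been background subtracted and scaled. The program used is not named in the labels or the paper, and the methods name GeneSpring GX for the comparisons. Values under 1 (36.8%) were set to 1 before log2. Genes came from the platform annotation (34885 probes with 1 symbol, 18 with several and 10378 with none). All 45281 probes and 4 groups were fitted with limma 3.58.1 (R 4.3.3, statmod 1.5.0, data.table version 1.17.8), checked on simulated data, and two-sided p-values were adjusted by Benjamini-Hochberg over 19057 genes in each of 5 contrasts. Bounds written as at least N-fold set the bright mean against the dim arrays' lowest signal above background. The members and lists were chosen with earlier results of these data known. Partners were named if called, and otherwise up to 3 a list by size of difference among genes above background on all arrays of a group. For each member, the 3 most and 3 least correlated genes were named. Alternatives covered floors, scaling, filters, probes, variance models, array weights, a replicate block and left-out arrays, and for the called partners they were added after the data were seen. Promoter windows are RefSeq sequences on GRCm38.p6, held for 4 of 6 members. The number of arrays limits the precision.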

Additional observations from a re-analysis of the deposited data

Results flagged for a closer look

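The change of Ryr3 with age passed the test of a difference between the tissues, but not under several other settings. Its E10 minus E9 difference was 5.11 in the AVC and 0.56 in the LV, and the test of the difference between them gave 4.56 on the log2 scale (limma, adjusted p = 0.0251). It was above background on 3 of 3 AVC E10 arrays and on 0 of the other 9, so the size rests on the floor of 1, and with a floor of 16 the same difference was 1.38 (adjusted p = 0.491). The call was also lost with the floor at each array's background limit (adjusted p = 0.526), with the second probe (0.469), with the replicate block (0.131), among genes above background only (0.0784), under quantile normalization (0.0678), and without AVC E9 replicate 3 (0.0603), LV E9 replicate 2 (0.0522) or LV E9 replicate 3 (0.0518).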

How the results depend on the processing

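The number of members called moved with several settings, and so did the count over all 19057 genes. With array weights that count was 2143 between tissues at E10, 2050 with age in the AVC and 3997 with age in the LV. Without both E10 replicate 1 arrays it was 441 between tissues at E9, 999 with age in the AVC and 2676 with age in the LV. With age it was 465 in the AVC without AVC E10 replicate 1, and 2630 in the LV without LV E10 replicate 1. For AVC E9 against LV E9 the number of members called was 1 with both E10 replicate 1 arrays left out, and 0 under the other alternatives. For AVC E10 against LV E10 it was 0 with each array floored at its background limit and 3 with array weights. For AVC E10 against AVC E9 it was 0 with that floor, 0 with only the 2 groups compared in the fit, 5 with array weights, 3 without both E10 replicate 1 arrays, and 1 to 3 with each array left out in turn. For LV E10 against LV E9 it was 0 when scaled to cardiomyocyte genes, 2 with the second probe, 0 with only the 2 groups compared, 4 with array weights, 4 without both E10 replicate 1 arrays, and 0 to 2 with each array left out. For the interaction it was 0 with a floor of 16, with the floor at the background limit, under quantile normalization, among genes above background only, with the second probe and with the replicate block, and 0 to 1 with each array left out. At the thresholds of the study, AVC E10 against LV E10 gave 0 with either higher floor and 2 with the second probe. AVC E10 against AVC E9 gave 1 with a floor of 16, 0 with the background limit, 1 with only the 2 groups compared and 1 to 2 with each array left out. LV E10 against LV E9 gave 1 with the second probe, and the interaction 0 with either higher floor and 1 to 2 with each array left out. Slc8a1 over Atp2a2 between tissues changed sign with single arrays left out, at -0.12 to 0.13 at E9 and -0.32 to 0.12 at E10.

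With the replicate block, the Ryr3 calls and the Atp2a2 call in the pairwise comparisons were kept, and the Hax1 and Fkbp1a calls were lost. Arrays of the same number were compared for shared deviations from their group means. Between AVC and LV arrays r was 0.23, 0.09 and 0.28 at E9, and -0.10, 0.10 and 0.12 at E10. Between the ages, where samples cannot share embryos, r ran from -0.32 to 0.13. The labels do not say whether AVC and LV arrays of a number came from the same embryos, and the main fit did not take the numbers as pairs. With the block, the Ryr3 interaction had an adjusted p of 0.131, and the count over all genes was 134 for AVC E9 against LV E9, 419 for AVC E10 against LV E10, 66 for AVC E10 against AVC E9 and 794 for LV E10 against LV E9, where it was 195, 438, 105 and 452 without it. Over the alternatives other than single left-out arrays, those counts ran from 83 to 636, from 72 to 2143, from 21 to 2050 and from 75 to 3997, and with each array left out from 59 to 422, from 97 to 730, from 25 to 465 and from 54 to 2630. For the interaction, 6 genes were called, and 0 to 118 under the alternatives other than single left-out arrays. The 118 came without both E10 replicate 1 arrays, and each array left out in turn gave 10 to 43. Quantile normalization moved the median of all genes above background by -0.16 at E10 between tissues, and cardiomyocyte scaling moved it by 0.19 with age in the AVC. Partner calls were lost under 57 of 92 alternatives with the direction kept. Intensities near the background limit, those of Ryr3 and of Casq2 in AVC E9, limit what these arrays can show of size.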
